A study of Mus musculus with 20 samples.

Results

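The genes described here are the D-type cyclins Ccnd1, Ccnd2 and Ccnd3, the kinases Cdk4 and Cdk6, the CDK inhibitors Cdkn1a, Cdkn1b and Cdkn2a, the pocket protein gene Rb1 and Myc. They were taken by gene symbol, with no use of their values, and are 10 of the 54532 genes in the count table. All 10 passed the filter on low counts, as did 15354 genes in all. In tumors, 6 of the 10 were higher than in normal kidney, where 23.6% of all genes tested were higher, 1 (Ccnd3) was lower, where 23.8% of all genes were, and 3 (Ccnd2, Cdkn1b and Rb1) did not pass the test at an adjusted p under 0.05. Every tumor had more Cdkn2a than every normal kidney.

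D-type cyclins bind CDK4 or CDK6 in the G1 phase of the cell cycle, and the active kinases phosphorylate the RB protein, which then releases E2F transcription factors that drive S phase genes. INK4 proteins such as p16 bind CDK4 and CDK6 directly, while the CIP/KIP proteins p21 and p27 act mainly on cyclin and CDK complexes. MYC is a transcription factor of growth and cell cycle entry. In clear cell kidney cancer, where VHL is commonly lost, CCND1 is a known target of the hypoxia-inducible factor HIF2, and loss of the chromosome arm that carries CDKN2A is found in advanced disease. In the mouse tumor model described below, the study saw no effect of a HIF2 inhibitor on cyclin D1, by tissue staining or by qRT-PCR. It concludes that the model is independent of HIF2.

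The study profiled 10 tumors and 10 normal kidney regions from C57BL/6 mice by poly(A)-enriched bulk RNA sequencing to compare expression between both tissues. Tumors arose after direct injection of the kidney with an AAV whose sgRNAs targeted Vhl, Pbrm1, Keap1 and Tsc1 and which carried no Cre and no guide against Cdkn2a. Cas9 came from a lox-stop-lox allele opened by Pax8 Cre, which is active in the renal tubular epithelium, and the normal regions came from the same mice and so shared both alleles. The study's methods give young adult mice of both sexes for the injection, and the sex of each mouse and the age at collection are not given in the sources used here. The labels neither tie a tumor number to a normal number nor say whether a normal region lay in an injected kidney, so the p-values measure the spread between these samples. As bulk values, these levels cannot tell fewer cells of a type apart from less RNA per cell.

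Library totals ran from 14737516 to 26679704 counts. Normal kidney 9 stood apart, its TMM scaling factor being 0.749, while the remaining 9 normal kidneys had 1.03 to 1.14. It had the fewest genes detected of all libraries (19996, against 22021 or more in the other normal kidneys). Its shares of counts from mitochondrial genes (12.15%) and from its 20 most abundant genes (23.1%) were the highest of all libraries. Normal kidneys 5, 7 and 8 had summed levels of 6 injured tubule markers (Havcr1, Lcn2, Krt20, Vcam1, Sox9 and Spp1) between 28270 and 49420 CPM (counts scaled to a common library size), against 2054 to 4164 in the other 7 and 8764 to 36980 in tumors. Spp1 made up 88.5% to 98.6% of this sum in all libraries, and without it the sums were 2040 to 5086, 28.2 to 316 and 264 to 1612 CPM. Lcn2 was lower in tumors (24.9 against 800 CPM on average, with 1765 to 3302 CPM in normal kidneys 5, 7 and 8). The 8 proximal tubule markers summed to 3950 to 7341 CPM in those 3 libraries, against 11810 to 16490 in the other normal kidneys. Tumor 7 had 8480 CPM of 7 fibroblast and pericyte markers (154 to 673 in other tumors) and 1619 CPM of the proximal tubule markers (6165 to 13740 in other tumors). Defining loop of Henle, distal convoluted tubule and collecting duct markers were near 0 in tumors (Umod 1.25 and Aqp2 0.0578 CPM on average) and abundant in the normal kidneys (Umod 4743 and Aqp2 315 CPM). Of the targeted genes, Vhl and Tsc1 mRNA were lower in tumors (log2 fold changes of -0.49 and -0.61), Keap1 was higher (0.83) and Pbrm1 did not pass the test (-0.28, adjusted p = 0.23). These transcript totals do not measure editing.

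**Figure D1:**
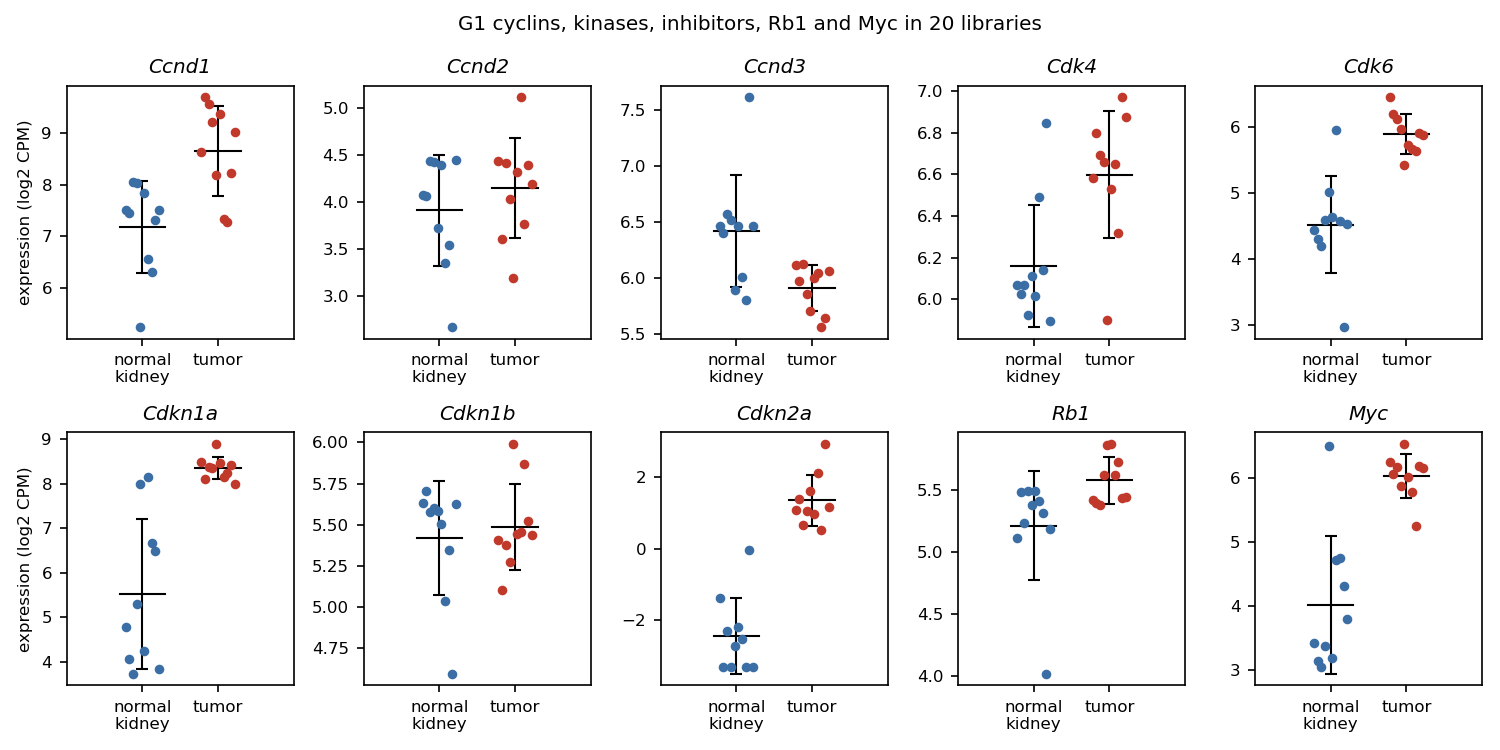
Expression of each gene in log2 CPM (y axis, with its own range in each panel) in the 10 normal kidneys (blue) and 10 tumors (red), 1 point per library, with the mean as a bar and the SD as whiskers. Cdkn2a is the panel in which all tumors sit above all normal kidneys, and normal kidney 9 is the lone low point of Rb1, at 4.02 log2 CPM.

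The D cyclins moved apart. Ccnd1, which encodes cyclin D1 and lies at chr7:144929931-144939925 (GRCm38, minus strand), had a lowest, median and highest level of 37.6, 178 and 267 CPM in normal kidneys and of 155, 459 and 828 CPM in tumors. Thus 8 of 10 tumors exceeded all normal kidneys, and tumors 7 and 8, at 162 and 155 CPM, lay inside the normal range. The log2 fold change of 1.49 ± 0.35 (SE, 95% interval 0.76 to 2.21, n = 10 and 10, edgeR quasi-likelihood test, Benjamini-Hochberg adjusted p = 0.00146) was above that of 93.3% of all genes tested. Normal kidneys 5, 7 and 8 held the 3 lowest normal values (37.6, 94.7 and 78.7 CPM), and without them the log2 fold change was 1.17 (adjusted p = 0.00483).

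Ccnd3, the gene of cyclin D3 (chr17:47505051-47599691, plus strand), was lower in tumors. Its levels were 55.8, 88.1 and 196 CPM (lowest, median, highest) in normal kidneys and 47.1, 63.4 and 69.6 CPM in tumors. All 10 tumors lay under the normal median and 3 lay under every normal kidney. This was a log2 fold change of -0.59 ± 0.18 (95% interval -0.96 to -0.22, adjusted p = 0.00922). The only normal kidneys inside the tumor range were 5, 7 and 8 (55.8 to 64.2 CPM), and the other 7 lay at 84.2 CPM or above. The highest normal value was that of normal kidney 9, without which the log2 fold change was -0.40 (adjusted p = 0.00591).

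Ccnd2, the gene of cyclin D2 (chr6:127125162-127152193, minus strand), showed no call. Its levels were 6.28, 16.7 and 21.6 CPM in normal kidneys and 9.08, 19.0 and 34.4 CPM in tumors, with widely overlapping groups. The log2 fold change was 0.23 (95% interval -0.26 to 0.71, adjusted p = 0.443), an interval that leaves room for a moderate rise. The highest value was that of tumor 7, and the lowest that of normal kidney 9.

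Per unit of gene length, Ccnd1 made up the largest part of the D cyclin total in every library. In TPM, a per-length transcript level computed from the counts and gene lengths, the 3 D cyclins summed to 129 ± 59.3 (SD, n = 10) in normal kidneys and 286 ± 135 in tumors. Ccnd1 held 72.0% ± 10.3 of that sum in normal kidneys (49.6% to 81.4%) and 89.6% ± 6.14 in tumors (75.5% to 95.4%). Ccnd3 held 23.9% ± 9.50 and 7.94% ± 4.13. The Ccnd1 shares of both tissues overlapped between 75.5% and 81.4%.

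**Figure D2:**
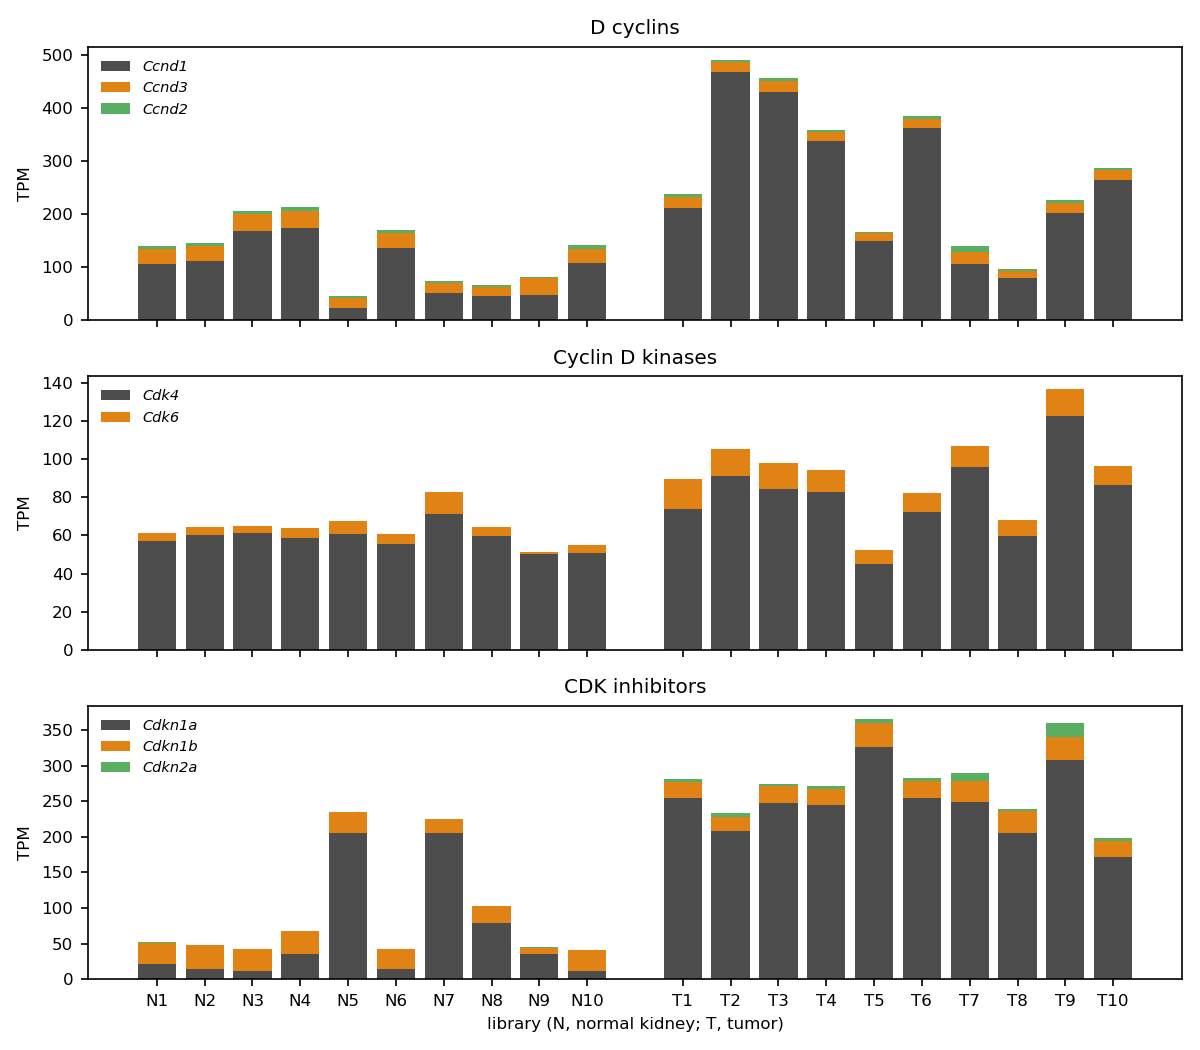
Per-length levels in TPM (y axis, from 0) of the D cyclins, the cyclin D kinases and the CDK inhibitors, stacked by gene, in each normal kidney (N1 to N10) and tumor (T1 to T10). Ccnd1 is the largest part of each D cyclin bar, Cdk4 that of each kinase bar, and Cdkn1a outweighs Cdkn1b in every tumor but, of the normal kidneys, only in 4, 5, 7, 8 and 9.

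Both cyclin D kinases were higher in tumors, Cdk6 more than Cdk4. Cdk4 (chr10:127063534-127067920, plus strand) had levels of 59.5, 67.0 and 115 CPM (lowest, median, highest) in normal kidneys and of 59.7, 101 and 125 CPM in tumors. Of 10 tumors, 9 exceeded the normal median, but normal kidney 9 (115 CPM) exceeded all but 2 tumors. Cdk4 changed by a log2 fold of 0.44 ± 0.14 (95% interval 0.16 to 0.72, adjusted p = 0.0113). It did not pass the test with upper quartile scaling (0.33, adjusted p = 0.0535).

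Cdk6 (chr5:3341485-3531008, plus strand) had levels of 7.73, 23.3 and 62.0 CPM in normal kidneys and of 42.7, 59.5 and 87.3 CPM in tumors. The only normal kidney inside the tumor range was number 7, and all other normal kidneys were at 32.2 CPM or less. In Cdk6 the log2 fold change reached 1.24 ± 0.24 (95% interval 0.74 to 1.74, adjusted p = 0.000236). Without normal kidneys 5, 7 and 8 it was 1.62 (adjusted p = 2.12e-06).

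In TPM, Cdk4 remained the major kinase transcript of both tissues. It made up 92.3% ± 3.09 (SD) of the sum of both kinases in normal kidneys and 87.3% ± 2.22 in tumors, and the sum itself was 63.6 ± 8.33 TPM and 93.1 ± 22.9 TPM. Tumor 5 had the lowest kinase sum of the tumors (52.3 TPM), within the normal range of 51.2 to 82.8 TPM.

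The Cdk4 promoter is shown because Cdk4 and Myc were both called higher and MYC with its partner MAX binds the E-box CACGTG. The 210 bases from 250 to 41 before the RefSeq start of Cdk4 (GRCm38.p6, chr10:127063285-127063494, plus strand) read as follows, with capitals for matches on either strand to CACGTG, to the hypoxia response core ACGTG, which each CACGTG contains on both strands, or to the antioxidant response core TGACNNNGC.
Cdk4: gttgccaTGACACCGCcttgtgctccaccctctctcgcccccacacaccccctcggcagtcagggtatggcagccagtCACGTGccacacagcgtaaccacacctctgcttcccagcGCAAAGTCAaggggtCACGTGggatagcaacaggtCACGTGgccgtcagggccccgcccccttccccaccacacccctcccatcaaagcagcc
This window held 3 copies of CACGTG and 2 matches to TGACNNNGC. Of 32851 promoter windows of the same length, 4.65% held at least 1 CACGTG, 13.7% held ACGTG and 8.20% held TGACNNNGC. Windows were on hand for 6 of the 10 genes, and outside Cdk4 the E-box was found in that of Cdk6 (1 copy), which was also called higher. Cdk4 had the most copies of any of these windows, so its count beside the share of all windows is a description and not a test. These are matches of letters, and binding was not measured. An effect of MYC on Cdk4 was not tested, and the levels of Cdk4 and Myc had a Pearson r of -0.04 over tumors and 0.32 over normal kidneys.

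The CDK inhibitors differed most among themselves. Cdkn2a (chr4:89274471-89294653, minus strand) encodes both p16 INK4a and, from another first exon and reading frame, p19 ARF, which restrains the p53 inhibitor MDM2. Its counts in normal kidneys 1 to 10 were 5, 0, 2, 0, 1, 2, 2, 0, 14 and 0, and in tumors 1 to 10 they were 36, 44, 28, 46, 54, 35, 100, 24, 186 and 50. Every tumor was above every normal kidney in CPM, with 1.33 to 7.59 CPM against 0 to 0.880 CPM, and normal kidney 9 gave 14 of the 26 normal counts. This was the only one of the 10 genes with no overlap in that direction, against 5.87% of all genes tested, and none had every tumor below every normal kidney, against 4.74%.

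The log2 fold change of Cdkn2a was 4.27 ± 0.65 (95% interval 2.92 to 5.62, adjusted p = 1.42e-05), above that of 99.3% of genes tested. It rests on few normal counts, 4 normal kidneys being at 0, where 3 counts would be 0.110 to 0.189 CPM. Without normal kidney 9 it was 5.27 (adjusted p = 3.09e-07). Tumors 9 and 7 had the highest levels (7.59 and 4.27 CPM) and also the highest sums of 12 immune markers (658 and 1291 CPM, against 261 to 434 CPM in other tumors). Normal kidney 9 had the highest normal sum (311 CPM). Of the immune markers, Cd3e, Cd8a, Cd4, Cd79a, Ms4a1 and Nkg7 averaged less in tumors than in normal kidneys. Tumors 9 and 7 were also the highest tumors in endothelium markers (682 and 678 CPM, others 219 to 414). The same held for fibroblast and pericyte markers (673 and 8480 CPM, others 154 to 559). Tumor 5, next in Cdkn2a at 2.99 CPM, had 273 CPM of immune markers. It had the lowest endothelium and fibroblast sums of the tumors (219 and 154 CPM). Normal kidney 9 had the lowest endothelium sum of the normal kidneys (331 CPM). The part of these cell type markers in the Cdkn2a levels was not tested. The other 8 tumors, at 1.33 to 2.99 CPM, also lay above all normal kidneys.

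Gene counts do not separate the transcripts of both Cdkn2a starts, so both promoters are shown. The lines give 210 bases, from 250 to 41 before each RefSeq start (GRCm38.p6, minus strand), with capitals for matches on either strand to the E2F motifs TTTCCCGC, TTTGGCGC or TTTCGCGC or to TGACNNNGC. The p19 ARF window is chr4:89294660-89294869, upstream of the gene, and the p16 INK4a window is chr4:89282233-89282442, in the first intron of the p19 ARF transcript.
Cdkn2a p19 ARF: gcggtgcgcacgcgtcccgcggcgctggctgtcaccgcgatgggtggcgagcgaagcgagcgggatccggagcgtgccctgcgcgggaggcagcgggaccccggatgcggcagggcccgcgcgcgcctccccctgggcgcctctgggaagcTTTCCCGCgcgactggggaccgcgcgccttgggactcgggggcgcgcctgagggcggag
Cdkn2a p16 INK4a: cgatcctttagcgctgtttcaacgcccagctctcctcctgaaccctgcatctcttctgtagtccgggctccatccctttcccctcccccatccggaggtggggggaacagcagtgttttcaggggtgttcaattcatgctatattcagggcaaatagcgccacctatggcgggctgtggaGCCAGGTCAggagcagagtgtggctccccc
The p19 ARF window held 1 E2F match, which 1.25% of the 32851 windows share, and the p16 INK4a window held 1 TGACNNNGC match. Neither held CACGTG or ACGTG.

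Cdkn1a, which encodes p21 and is a p53 target gene, was high in all tumors and in a part of the normal kidneys. It lies at chr17:29090976-29100727 (plus strand). Levels were 13.2, 33.4 and 284 CPM (lowest, median, highest) in normal kidneys and 254, 329 and 475 CPM in tumors. Normal kidneys 5 and 7 (256 and 284 CPM) lay inside the tumor range, normal kidneys 8 and 9 followed at 101 and 89.6 CPM, and the other 6 were at 39.5 CPM or less. For Cdkn1a the log2 fold change was 1.94 ± 0.52 (95% interval 0.86 to 3.03, adjusted p = 0.00433). Without normal kidneys 5, 7 and 8, which had the high injured tubule marker sums, it was 3.40 ± 0.37 (adjusted p = 4.89e-07). The part of tubule injury in these levels was not tested.

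Cdkn1b, the gene of p27 (chr6:134920401-134925513, plus strand), was about level. It had 24.1, 47.8 and 52.0 CPM in normal kidneys and 34.2, 43.4 and 63.5 CPM in tumors. The log2 fold change was 0.06 (95% interval -0.22 to 0.34, adjusted p = 0.754), and its sign changed with the scaling, while limma-voom called it lower (-0.18, adjusted p = 0.0417). In TPM, Cdkn1a made up 54.4% ± 26.7 (SD) of the sum of the 3 inhibitors in normal kidneys, from 26.0% to 91.7%, and 88.2% ± 2.05 in tumors, from 85.3% to 90.2%. Tumors were thus far closer to each other in this share than the normal kidneys were.

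Rb1 (chr14:73183673-73325822, minus strand), which encodes the RB protein that the cyclin D kinases phosphorylate, was at the edge of the test. Its levels were 16.1, 40.6 and 44.8 CPM in normal kidneys and 41.4, 46.2 and 58.4 CPM in tumors. All 10 tumors exceeded the normal median and 5 exceeded every normal kidney. The log2 fold change was 0.33 ± 0.14 (95% interval 0.04 to 0.62) with an adjusted p of 0.0575. Without normal kidney 9, the lowest library, it was smaller, at 0.23, with an adjusted p of 0.0258.

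Myc (chr15:61985391-61990374, plus strand) was higher in tumors. It had 8.18, 12.1 and 89.7 CPM (lowest, median, highest) in normal kidneys and 37.6, 68.8 and 92.0 CPM in tumors. Only normal kidney 5 lay inside the tumor range, and normal kidneys 7, 8 and 9 (19.6 to 26.7 CPM) came next. For Myc this gave a log2 fold change of 1.58 ± 0.38 (95% interval 0.79 to 2.37, adjusted p = 0.00182). Without normal kidney 5 it was 2.17 (adjusted p = 4.31e-07), and without normal kidneys 5, 7 and 8 it was 2.54 (adjusted p = 7.42e-09).

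**Figure D3:**
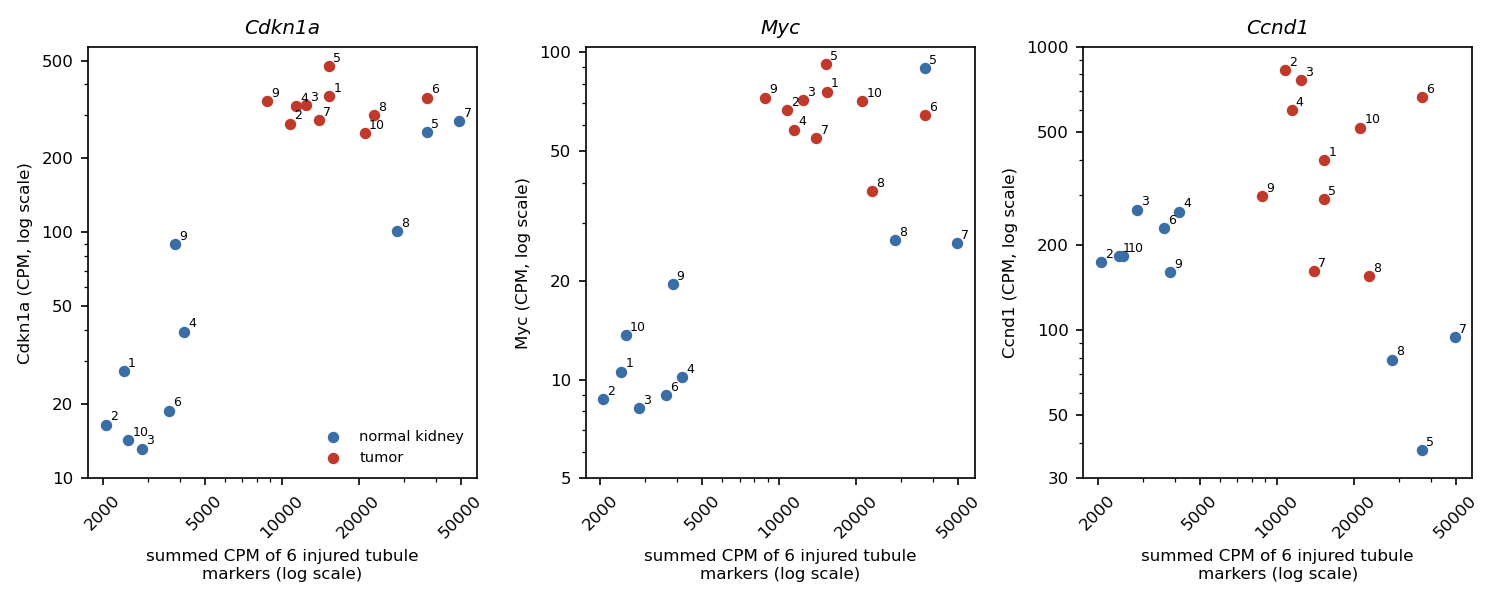
Levels of Cdkn1a, Myc and Ccnd1 in CPM (y axes, log scale) against the summed CPM of 6 injured tubule markers (x axes, log scale), 1 numbered point per normal kidney (blue) or tumor (red). Normal kidneys 5, 7 and 8 lie to the right, at 28270 CPM or more, with Cdkn1a of 101 to 284 CPM and Ccnd1 of 37.6 to 94.7 CPM, below all other libraries for Ccnd1. Tumor 6 also lies there, at 36980 CPM, with Cdkn1a of 354 CPM and Ccnd1 of 667 CPM.

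Across all genes tested the median change was -0.02 on the log2 scale, and upper quartile scaling and library totals moved it to -0.14. Leaving out normal kidneys 5, 7 and 8 kept all 7 calls, with the sizes of Cdkn1a and Myc raised most. For Ccnd1, Ccnd2, Ccnd3, Cdk4, Cdk6, Cdkn1a and Rb1 another annotated gene overlaps on the opposite strand (LTO1, Bysl and Tspan31 among them), and whether the counting used strand was not given in the sources used here.

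**Figure D4:**
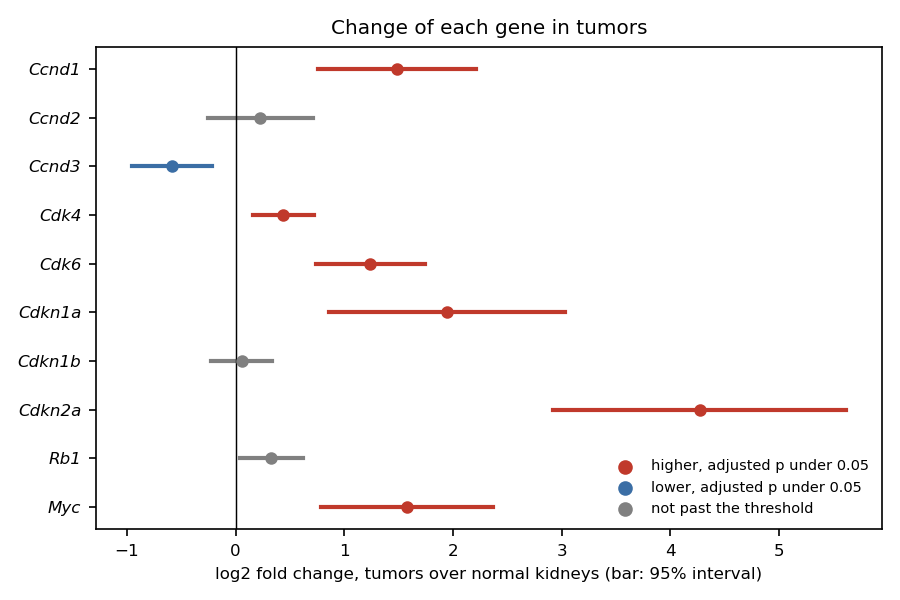
Log2 fold change of tumors over normal kidneys (x axis) for each gene (points) with its 95% interval (bars), red for called higher, blue for called lower and grey for not past the threshold. Cdkn2a has the largest change (4.27) and the widest interval, and Ccnd3 is the one gene left of 0 whose interval stays below it.

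In TPM the order of mean levels in tumors was Ccnd1 (262), Cdkn1a (247), Cdk4 (81.5), Myc (65.0), Cdkn1b (26.5), Rb1 (21.2), Ccnd3 (18.3), Cdk6 (11.6), Cdkn2a (6.74) and Ccnd2 (5.42). Ranges of neighbours in this order overlapped, except that Cdkn1a (172 to 326 TPM) lay above Cdk4 (44.8 to 123 TPM). In normal kidneys Ccnd1 (97.4), Cdkn1a (63.3) and Cdk4 (58.6) again led. There the ranges of neighbours also overlapped, except that Cdk4 (50.5 to 71.3 TPM) lay above Cdkn1b (7.54 to 34.5 TPM). Cdkn2a, at 0.254 TPM, was the lowest in normal kidneys.

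Among the 10 tumors, the levels of Cdk4 and Cdkn1b in log2 CPM ran opposite (Pearson r = -0.77), as they did in the 10 normal kidneys (r = -0.96), while Cdkn1b and Rb1 ran together (r = 0.63 in tumors and 0.77 in normal kidneys). Cdk6 and Rb1 ran opposite in tumors (r = -0.80) but together in normal kidneys (r = 0.76), where normal kidney 9 was lowest in both. With group means taken off, r over all 20 libraries was 0.52 for this pair, and -0.115 without normal kidney 9 and tumor 7. The same omission moved r from 0.71 to 0.40 for Cdkn1b and Rb1, and from -0.87 to -0.80 for Cdk4 and Cdkn1b. These values describe libraries that share scaling and tissue make-up, and no test was made. By the rule for like patterns, Ccnd1 was matched by D6Wsu163e, Dhx29 and Ankrd13c (r = 0.90, 0.95 and 0.93 over the tumors), and Cdk4 by Ap1m1, Snrpa and Tradd (0.91, 0.83 and 0.87). Cdkn1a was matched by Bcl2l1, Tnfrsf12a and Litaf (0.87, 0.70 and 0.12), and Myc by Hbegf, Ptp4a1 and Gnl3 (0.66, 0.72 and 0.56). For Ccnd3 the genes were Hspe1, Ahsa1 and Atp5e (0.76, 0.57 and 0.53), for Cdk6 Myof, Map4 and Nacc1 (0.58, 0.66 and 0.63), and for Cdkn2a Eef2, Gm10243 and Nxf1 (0.90, 0.49 and 0.58). The rule drew on all 20 libraries, and where r over the tumors is low, as for Litaf, the likeness lay in the normal kidneys.

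Around these genes, 107 other genes of the pathway were tested, of which 28 (26.2%) were higher and 10 (9.35%) lower in tumors, with a median log2 fold change of 0.26. Over all genes tested the shares were 23.6% and 23.8%, so the share higher was near that of all genes. The number higher rose to 51 without normal kidney 7 alone. Of the other CDK inhibitors, Cdkn2b (p15, log2 fold change 1.75, adjusted p = 3.83e-05) and Cdkn2c (p18, 1.18, adjusted p = 5.01e-06) were higher. Cdkn2c was at 12.7 ± 3.54 CPM (SD) in normal kidneys and 28.8 ± 6.15 CPM in tumors, without overlap. Cdkn1c, which encodes the CIP/KIP protein p57, fell from 25.9 ± 7.26 to 2.65 ± 3.00 CPM (log2 fold change -3.27, adjusted p = 4.17e-07), with all tumors below all normal kidneys. Tumor 7 was at 11.1 CPM of Cdkn1c and the other tumors at 1.29 to 2.34 CPM. Podocytes are a known site of Cdkn1c expression. Of 4 podocyte markers 3 were lower in tumors, among them Nphs1, which averaged 38.5 CPM in normal kidneys and 0.613 CPM in tumors. Synpo was not called, at 112 and 147 CPM, and the 4 markers summed to medians of 644 and 197 CPM. The highest tumor sum was that of tumor 7 (265 CPM). The part of podocytes in the Cdkn1c level was not tested. Cdkn2d (p19 INK4d) had a log2 fold change of 0.45 that missed the threshold (adjusted p = 0.0557).

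Downstream of the D cyclins, the cyclin E gene Ccne2 was higher in tumors (log2 fold change 1.13, adjusted p = 0.000208). Ccne1 passed narrowly (1.32, adjusted p = 0.0375), and leaving out 1 library ended its call in 12 of 20 runs, as without tumor 7 (1.15, adjusted p = 0.0646). Their kinase Cdk2 (-0.01, adjusted p = 0.972) and Cdc25a, the phosphatase that activates it (0.02, adjusted p = 0.932), did not pass the test. With TMM scaling of all libraries, none of the 3 CDK-activating kinase genes passed the edgeR test in either direction (Cdk7 -0.09, Ccnh -0.28 and Mnat1 -0.08 on the log2 scale, adjusted p from 0.108 to 0.648), none had an unadjusted p under 0.05, and none passed with DESeq2. Ccnh was called lower under 6 of the 30 alternatives (log2 fold change -0.44 to -0.27), which were upper quartile scaling, library totals, limma-voom, and leaving out normal kidney 5, normal kidney 7, or 5, 7 and 8.

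Of 12 pocket protein, E2F and DP genes, 4 were higher and 1 lower. E2f1, an activator E2F, went from 4.25 ± 2.30 CPM in normal kidneys to 42.5 ± 14.0 CPM in tumors (log2 fold change 3.31, adjusted p = 2.42e-09), with all tumors above all normal kidneys. E2f3 (1.19, adjusted p = 0.000356) and E2f2 (1.11, adjusted p = 0.00162) were the next in size among those higher, and Tfdp2, a dimerization partner of E2Fs, was lower (-0.81, adjusted p = 3.70e-05). Of 16 replication genes known as E2F targets, 5 were higher, with the largest changes in Rrm2 (1.27, adjusted p = 0.0481), Cdc45 (1.25, adjusted p = 0.000214) and Mcm3 (0.87, adjusted p = 0.0352). In the same list Tyms, which encodes thymidylate synthase, was lower (-0.79, adjusted p = 0.00739). Without normal kidney 7 the count of higher genes was 11 of 16, and without tumor 7 it was 3. Leaving out 1 library ended the call of Rrm2 in 15 of 20 runs and that of Mcm3 in 12.

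The count of cyclins, kinases and markers of S, G2 and M phase that were higher varied widely with the libraries and the model. Of 12, 2 were higher, Ccnb1 (log2 fold change 1.61, adjusted p = 0.0464) and Aurka (1.11, adjusted p = 0.00990), and the median of all 12 was 1.11. Normal kidney 7 had a summed level of 233 CPM, against 10.8 to 46.9 CPM in the other normal kidneys and 30.1 to 250 CPM in tumors. Without it, all 12 were higher, as they were by limma-voom with all libraries kept. Leaving out 1 library ended the call of Ccnb1 in 15 of 20 runs. Mki67, the Ki-67 proliferation marker, was at 51.4 CPM in normal kidney 7 and at 4.60 to 59.0 CPM in tumors.

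**Figure D5:**
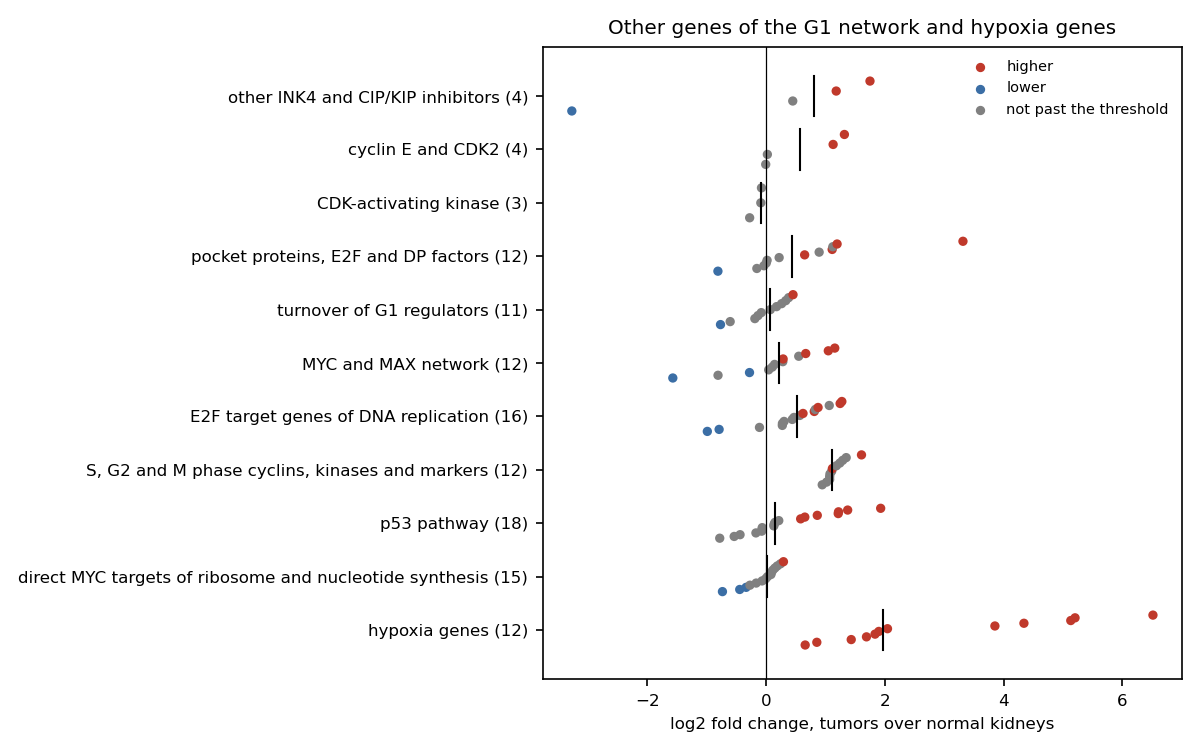
Log2 fold change of tumors over normal kidneys (x axis) for each gene of the other pathway lists and of 12 hypoxia genes (rows, with the number of genes), red for higher, blue for lower and grey for not past the threshold, with the median of each list as a black line. E2f1 at 3.31 and Cdkn1c at -3.27 stand far from the rest of their lists, and all 12 hypoxia genes are right of 0.

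In the MYC and MAX network, 4 of 12 genes were higher and 2 lower. Mxd1 (log2 fold change 1.16, adjusted p = 6.78e-06) and Mxi1 (1.05, adjusted p = 3.99e-05), both MAX partners that oppose MYC, were higher, as was the carbohydrate-responsive factor Mlxipl (0.67, adjusted p = 0.0181). Mycn was lower in every tumor than in every normal kidney (-1.57, adjusted p = 4.11e-05), at 2.79 ± 0.611 CPM and 0.933 ± 0.435 CPM, and Mxd4 was lower (-0.28, adjusted p = 0.00792). Of 15 known direct MYC targets of ribosome and nucleotide synthesis, 1 was higher (Wdr43, 0.29, adjusted p = 0.0147) and 3 were lower, which were Ppat (-0.74, adjusted p = 0.00445), Npm1 (-0.45, adjusted p = 0.0174) and Gart (-0.34, adjusted p = 0.0327), the last of which lost its call in 6 of 20 runs that left out 1 library. The median of the 15 was 0.02, beside the log2 fold change of 1.58 of Myc itself. With limma-voom 8 of the 15 were higher. With upper quartile scaling 0 were higher and 5 lower, and with library totals 0 were higher and 3 lower, so the counts depended on the processing in both directions.

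Of 18 p53 pathway genes, 7 were higher and none lower in the main edgeR fit, with TMM scaling of all libraries and no replicate block. There Sesn2, named after its values were seen, had a negative change (-0.54) with an unadjusted p of 0.0338. Sesn2 was called lower under 7 of the 30 alternatives. These were upper quartile scaling, library totals, DESeq2, limma-voom, the replicate block (edgeR with same-numbered libraries paired), and leaving out tumor 5 or tumor 8. Perp, also named after its values were seen, was called lower under 3, which were limma-voom, the replicate block and leaving out tumor 5. Plk2 (log2 fold change 1.93, adjusted p = 1.18e-05), Trp53inp1 (1.37, adjusted p = 4.57e-06) and Eda2r (1.22, adjusted p = 0.00533) had the largest rises, while the classic targets Mdm2 (0.21, adjusted p = 0.118) and Ccng1 (0.15, adjusted p = 0.391), named after their values were seen, did not pass the test. The median of the list was 0.14.

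Of 11 genes that control the turnover of G1 regulators, Fzr1, an activator of the anaphase-promoting complex, was higher (0.45, adjusted p = 0.000622), and Fbxo31, an F-box protein that directs cyclin D1 to degradation, was lower (-0.77, adjusted p = 0.00114). All 12 hypoxia genes were higher, led by Ankrd37 (6.51), Car9 (5.20) and Hk2 (5.13) on the log2 scale. Their sum was 7501 CPM in tumor 7, against 11830 to 14800 CPM in the other tumors and 3145 to 4435 CPM in normal kidneys. Tumors 7 and 8, the 2 in which Ccnd1 stayed within the normal range, had the lowest hypoxia sums (7501 and 11830 CPM), with tumor 9 next at 11920 CPM. Tumor 5, whose Ccnd1 (290 CPM) was the lowest of the other tumors, had the highest hypoxia sum, at 14800 CPM. Ndrg1 and Ldha were the largest parts of this sum in every tumor (2608 and 1889 CPM in tumor 7). Tumor 7 also had 8480 CPM of fibroblast and pericyte markers. The part of hypoxia or of tissue make-up in the Ccnd1 levels was not tested.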

How the data were processed

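RNA from 10 tumors and 10 normal kidneys was poly(A) enriched and sequenced by a company. The authors deposited raw read counts per gene for all 20 samples, not normalized, on build mm10 per the labels. The aligner, the counter and the use of strand are not given in the sources used here. Samples were grouped by their labels.

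Counts were tested with edgeR 4.0.16 (R 4.3.3): TMM scaling, a low-count filter at a minimum count of 10, a quasi-likelihood fit of tumor against normal kidney over all 20 libraries, and Benjamini-Hochberg adjustment over the 15354 genes tested, with calls at an adjusted p under 0.05. Log2 CPM used a prior count of 2, CPM without a prior used the TMM-scaled totals, and TPM was computed from counts and the gene lengths in the table. Library totals of 14737516 to 26679704 limit low genes to counting error, as for Cdkn2a. No pair of libraries within a group agreed within sampling noise (90 pairs, chi-square divided by its degrees of freedom at least 14.0). The code was tested on simulated data.

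All 10 genes were named. Of the other lists, up to 3 called genes with the largest change in each direction were named, and all genes of lists of 4 or fewer. Single values of some genes that this rule names are not reported here. For each called gene of the 10, the 3 other genes with the highest correlation over the 20 libraries, after taking off group means, were named. The genes and lists were chosen with earlier results of these data known. Alternatives were other scalings, no filter, DESeq2 1.42.0, limma-voom (limma 3.58.1) with quality weights, a replicate block, and leaving out libraries. Leaving out normal kidneys 5, 7 and 8 was chosen after seeing the data, from the injured tubule markers. Positions matched GENCODE M21, and promoters came from RefSeq.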

Additional observations from a re-analysis of the deposited data

Results flagged for a closer look

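Of 20 groups of 10 libraries (10 genes in 2 tissues), 3 held a library far from the rest by Dixon's test, and chance gives about 1 in 20. Normal kidney 9 had the highest Ccnd3 of its group, at 7.61 log2 CPM with the next at 6.57. The same library had the lowest Rb1, at 4.02 log2 CPM with the next at 5.11. Normal kidney 5 had the highest Myc, at 6.49 log2 CPM with the next at 4.74.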

How the results depend on the processing

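Over 30 alternatives, 287 of the 300 log2 fold changes of the 10 genes kept their direction and side of the threshold. Cdk4 fell short with upper quartile scaling (0.33, adjusted p = 0.0535). Cdkn1b, not called, was below 0 with upper quartile scaling (-0.066), library totals (-0.097), limma-voom (-0.18, adjusted p = 0.0417), without normal kidney 9 and tumor 7 (-0.031), and without normal kidney 9 (-0.022) or tumor 5 (-0.0079) alone, for a range of -0.022 to 0.10 leaving out 1 library. Ccnd2, not called, was below 0 with limma-voom (-0.13) and without normal kidney 9 and tumor 7 (-0.030). Rb1 passed the threshold with limma-voom (0.21) and without normal kidney 9 and tumor 7 (0.21), and ranged from 0.23 to 0.35 leaving out 1 library. The causes were not tested. With limma-voom 2 of the 10 genes were lower, and 65 other pathway genes were higher. That count of 28 ranged from 24 to 51 leaving out 1 library and was 54 without normal kidneys 5, 7 and 8. Cdkn1a, at 1.94, was 3.83 with limma-voom, where Myc was 2.65. Without length correction Ccnd1 made up 58.5% and 82.3% of the D cyclins in normal kidneys and tumors, and Cdk4 made up 74.3% and 61.8% of its pair. Upper quartile scaling gave 3000 genes higher and 4650 lower, and library totals gave 2850 and 4554, against 3631 and 3661.

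Same-numbered tumors and normal kidneys deviated together in 9 of 10 pairs (r above 0.1, from -0.14 to 0.38 over all pairs), and 8 of 10 tumors were most like the normal kidney of their own number, a hint from the data that many numbers mark 1 mouse. As the labels do not tie the numbers to mice and pair 9 had a negative r, the fit without pairs was kept as the main one. With the replicate block, 7 of the 10 genes were higher and 1 lower, Rb1 passing at 0.36 (adjusted p = 0.0309), Cdkn1a was 2.88, and 41 other pathway genes were higher. All 12 S, G2 and M phase genes were higher with the block.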
